A study of Homo sapiens with 5 samples.

Results

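The genes described here were 9 enzymes of glycolysis and 1 glucose transporter: SLC2A1, HK2, PFKP, ALDOA, TPI1, GAPDH, PGK1, ENO1, PKM and LDHA. They were taken by name from the counts aligned to the human reference, and all 10 were among the 32732 genes listed for every library. Their levels were followed in 34390 human cells of human brain organoids made from the H9 embryonic stem cell line, whose cells carried ChR2-EYFP at the AAVS locus per the study's methods, although the labels give the genotype as WT. Group D0 held organoids on the day of transplantation, at culture day 42, and the grafted brain organoids had been placed in the hippocampus (HIP) or prefrontal cortex (PFC) of immunodeficient SCID mice and collected 2 months (2MPT) or 4 months (4MPT) later. Each condition was 1 library made from pooled organoids or animals: D0 with 4885 cells, HIP_2MPT with 8277, PFC_2MPT with 5952, HIP_4MPT with 6913 and PFC_4MPT with 8363. All cells came from 1 stem cell line, and D0 had no replicate.

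Glycolysis splits glucose into pyruvate in the cytosol. Glucose enters through SLC2A1, is trapped by hexokinases such as HK2, is committed to the pathway by phosphofructokinases such as PFKP and is cut and rearranged by the enzymes from ALDOA to PKM, after which LDHA turns pyruvate into lactate. Neural progenitors and astrocytes are known for a high glycolytic rate, and most of these genes are also classical targets of hypoxia-inducible factors (HIF), the transcription factors that rise when oxygen is short.

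Libraries differed in depth and make-up. Human cells held 55866969 UMIs (unique molecular identifiers, 1 per captured RNA molecule) in D0 and 11066442 to 21177885 in grafts, with a median of 9847 UMIs per cell in D0 and 1253 to 2759 in grafts. The median mitochondrial share was 3.22% in D0, 2.35% to 3.77% in HIP_2MPT, PFC_2MPT and HIP_4MPT, and 7.31% in PFC_4MPT. Libraries shared 6 to 20 cell barcodes pairwise, at most 0.289% of the smaller library. Progenitor-like cells (cycling cells and radial glia) were 47.2% of D0 and 6.22% to 10.6% of grafts. Neuron-like cells (neurons, inhibitory neurons and intermediate progenitors) were 43.0% of D0 and 68.6% to 89.0% of grafts. D0 differed from grafts in the dissociation enzyme (TrypLE against Trypsin-EDTA) and in the Cell Ranger release and annotation (3.1.0 against 5.0.0). Graft cells were also 2 or 4 months older than D0 cells, and none of the 5 libraries held organoids kept in culture as long. None of these differences, age among them, can be told apart from transplantation.

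Lineages were checked against their markers before use. The 15 neuron markers summed to 4002 to 8102 CPM (UMIs scaled to 1000000 per library and lineage) in neuron-like cells and to 536 to 1996 CPM in progenitor-like cells. Radial glia markers moved with the comparison of grafts with D0. The 8 of them summed to 8236 CPM in progenitor-like cells of D0 against 2271 to 4710 CPM in grafts, and to 2141 CPM in neuron-like cells of D0 against 265 to 512 CPM in grafts, with 0 of the 8 at 0 in any library, and their part in the results within lineages was not tested. Astrocyte-like cells of D0 numbered 99, and their 12 astrocyte markers summed to 973 CPM, with 2 markers at 0, against 2839 to 14060 CPM in grafts, while their 8 radial glia markers summed to 8989 CPM. The astrocyte label is therefore weak in D0, and every result on astrocyte-like cells rests on those 99. Of the 2098 neuron-like cells of D0, 1126 lay in cluster 12, which held 5 graft cells, and of the 2304 progenitor-like cells of D0, 1220 lay in cluster 5, which held 769 graft cells.

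Promoters are shown because HIF targets are read beside these genes. The 250 bases upstream of their RefSeq transcription starts (GRCh38.p14) were searched for ACGTG and GCGTG on both strands, the core of the element that HIF binds. All 10 genes had a window, 18 in all, and 13 of these (72.2%) held at least 1 copy, against 43.2% of 35116 windows of all genes, with 18.5% for ACGTG and 32.2% for GCGTG. A palindromic CACGTG counts once on each strand. Windows of 8 genes held a copy and those of PKM and SLC2A1 held none. Neither the copies nor their lack says whether HIF binds there. For 5 genes with copies and for SLC2A1, without any, the window with the most copies is printed from 5′ to 3′ on the gene's strand, with the copies in capitals.
PGK1 (chrX:78103998-78104247, plus strand, 3 copies): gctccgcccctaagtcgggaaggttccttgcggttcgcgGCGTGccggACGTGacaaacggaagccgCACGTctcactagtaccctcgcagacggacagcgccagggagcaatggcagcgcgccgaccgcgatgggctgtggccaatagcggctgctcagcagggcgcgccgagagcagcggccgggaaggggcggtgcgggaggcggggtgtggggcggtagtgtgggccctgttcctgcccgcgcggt
ENO1 (chr1:8878687-8878936, minus strand, 2 copies): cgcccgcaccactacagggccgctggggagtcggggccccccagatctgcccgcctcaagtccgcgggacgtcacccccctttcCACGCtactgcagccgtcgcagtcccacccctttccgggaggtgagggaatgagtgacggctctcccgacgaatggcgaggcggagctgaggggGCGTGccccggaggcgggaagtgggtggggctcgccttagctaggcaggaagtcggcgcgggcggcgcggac
LDHA (chr11:18394313-18394562, plus strand, 5 copies): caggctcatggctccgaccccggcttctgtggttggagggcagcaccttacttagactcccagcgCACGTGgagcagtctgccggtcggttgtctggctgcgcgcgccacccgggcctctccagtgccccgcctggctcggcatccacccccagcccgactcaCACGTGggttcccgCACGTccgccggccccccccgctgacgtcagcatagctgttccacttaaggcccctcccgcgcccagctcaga
HK2 (chr2:74834920-74835169, plus strand, 6 copies): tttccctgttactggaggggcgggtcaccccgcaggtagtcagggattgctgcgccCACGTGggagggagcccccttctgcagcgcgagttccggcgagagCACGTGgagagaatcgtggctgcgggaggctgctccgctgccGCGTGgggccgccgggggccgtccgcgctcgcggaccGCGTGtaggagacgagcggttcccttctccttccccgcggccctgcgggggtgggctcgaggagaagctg
ALDOA (chr16:30064247-30064496, plus strand, 2 copies): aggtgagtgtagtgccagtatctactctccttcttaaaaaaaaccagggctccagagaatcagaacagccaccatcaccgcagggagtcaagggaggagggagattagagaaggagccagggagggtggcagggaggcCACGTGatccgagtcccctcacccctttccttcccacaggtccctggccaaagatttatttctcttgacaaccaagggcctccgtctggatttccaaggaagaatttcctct
SLC2A1 (chr1:42958869-42959118, minus strand, 0 copies): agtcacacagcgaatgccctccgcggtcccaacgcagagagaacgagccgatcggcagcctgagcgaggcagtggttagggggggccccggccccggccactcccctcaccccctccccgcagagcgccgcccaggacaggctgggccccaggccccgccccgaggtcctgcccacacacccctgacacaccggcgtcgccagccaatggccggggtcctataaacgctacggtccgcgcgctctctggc

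The windows differ in the spacing of their copies. LDHA and HK2 each hold CACGTG at 2 places, PGK1 holds its copies in the part farthest from the start, and ALDOA holds CACGTG at 1 place.

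The transporter showed the widest gap. SLC2A1, the glucose carrier of the blood-brain barrier and of glia, (chr1:42925353-42958893 of GRCh38, minus strand) stood at 171 CPM in D0, at 6.51 (HIP) and 5.82 (PFC) at 2MPT, and at 7.46 (HIP) and 9.66 (PFC) at 4MPT. No graft library came near D0. On the log2 scale grafts were lower by -4.91 ± 0.23 (SE, edgeR quasi-likelihood test, adjusted p = 8.58e-07). The same gene stood at 186 CPM in progenitor-like, 85.0 CPM in neuron-like and 220 CPM in astrocyte-like cells of D0, against means of 8.21 ± 2.99, 5.93 ± 0.324 and 12.4 ± 5.38 CPM (SD, n = 4) in the graft libraries, so every lineage of D0 lay above every graft library. Against the human-mouse dual reference, HIP_4MPT kept 75.3% and PFC_4MPT 93.8% of these SLC2A1 UMIs, and where the others went was not tested.

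The kinases of the upper pathway moved by different amounts. HK2, the inducible hexokinase, (chr2:74834127-74893359, plus strand) stood at 53.7 CPM in D0, at 8.22 (HIP) and 5.48 (PFC) at 2MPT, and at 1.84 (HIP) and 4.32 (PFC) at 4MPT. D0 lay above every graft library, and HK2 fell in grafts (-3.90 ± 0.35, adjusted p = 1.46e-05). In progenitor-like cells it rested on 1408 UMIs in D0 and on 5, 3, 1 and 2 UMIs in HIP_2MPT, PFC_2MPT, HIP_4MPT and PFC_4MPT, and the pooled D0-to-graft ratio was 38.3 with a 95% counting interval of 21.3 to 76.9. Without HIP_2MPT, whose own ratio was 8.84, it was 62.9 (28.8 to 172). PFKP, the platelet-type phosphofructokinase that is also found in brain, (chr10:3066333-3137718, plus strand) stood at 38.7 CPM in D0, at 28.1 (HIP) and 20.3 (PFC) at 2MPT, and at 16.3 (HIP) and 19.9 (PFC) at 4MPT. D0 lay above every graft library, and the fall was the smallest of the 9 that passed in all cells (-1.23 ± 0.26, adjusted p = 0.00272), and in progenitor-like cells it passed with edgeR (-1.20) but not with DESeq2 (-1.22, adjusted p = 0.0582). PFKP shares 1.54% of its exon bases, on the same strand, with ENSG00000278419, a gene listed for D0 but not for grafts. The effect of this on its counts was not tested.

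ALDOA (chr16:30064164-30070457, plus strand), an aldolase that cuts the doubly phosphorylated sugar, was the exception among the 10 genes. It stood at 41.1 CPM in D0, inside the graft range of 27.3 CPM in PFC_2MPT to 52.5 CPM in HIP_2MPT, with 33.7 CPM in HIP_4MPT and 42.9 CPM in PFC_4MPT. Its difference did not pass the test (-0.42 ± 0.33, adjusted p = 0.304), and without HIP_2MPT it did (-0.67, adjusted p = 0.0414). Scaling by library totals alone turned its sign in progenitor-like cells, from -0.24 to 0.06. ALDOA values are uncertain, because 42.8% of its exon bases are shared, on the same strand, with another listed gene, ENSG00000285043, and reads there cannot be told apart.

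The enzymes of the middle of the pathway also fell. TPI1 (chr12:6867119-6870948, plus strand), which interconverts the triose phosphates, stood at 1124 CPM in D0 and at 219, 227, 225 and 267 CPM in HIP_2MPT, PFC_2MPT, HIP_4MPT and PFC_4MPT (-2.60 ± 0.23, adjusted p = 1.35e-05). GAPDH (chr12:6534512-6538374, plus strand), which oxidises a triose phosphate and is often used as a reference gene, stood at 3521 CPM in D0 and at 1304, 1458, 1371 and 1798 CPM in the same order (-1.59 ± 0.27, adjusted p = 0.000644). D0 exceeded the highest graft library 4.21-fold for TPI1 and 1.96-fold for GAPDH. No graft library reached D0 for either gene.

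The lower steps of the pathway followed. PGK1 (chrX:77910739-78129295, plus strand), the first ATP-forming kinase, stood at 474 CPM in D0 and at 106, 113, 115 and 145 CPM in HIP_2MPT, PFC_2MPT, HIP_4MPT and PFC_4MPT (-2.33 ± 0.23, adjusted p = 2.67e-05). ENO1 (chr1:8861000-8879190, minus strand), the main enolase outside neurons, stood at 944 CPM in D0 and at 142, 144, 157 and 185 CPM in grafts (-2.94 ± 0.23, adjusted p = 6.57e-06). PKM (chr15:72199029-72231819, minus strand), pyruvate kinase, stood at 617 CPM in D0 and at 100.1, 142, 139 and 144 CPM in grafts (-2.58 ± 0.24, adjusted p = 1.86e-05). For these enzymes the 4 graft libraries lay within 1.44-fold of each other, and D0 was at least 3.26-fold above the highest of them.

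LDHA (chr11:18394560-18408425, plus strand), the lactate dehydrogenase subunit that favours lactate formation, fell almost as far as the transporter. It stood at 275 CPM in D0 and at 12.9, 16.4, 18.9 and 15.97 CPM in HIP_2MPT, PFC_2MPT, HIP_4MPT and PFC_4MPT (-4.45 ± 0.22, adjusted p = 9.53e-07). Among the 10 genes, the order of the fall on the log2 scale was SLC2A1, LDHA, HK2, ENO1, TPI1, PKM, PGK1, GAPDH, PFKP and ALDOA. The differences between neighbours in this order were not tested.

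**Figure D1:**
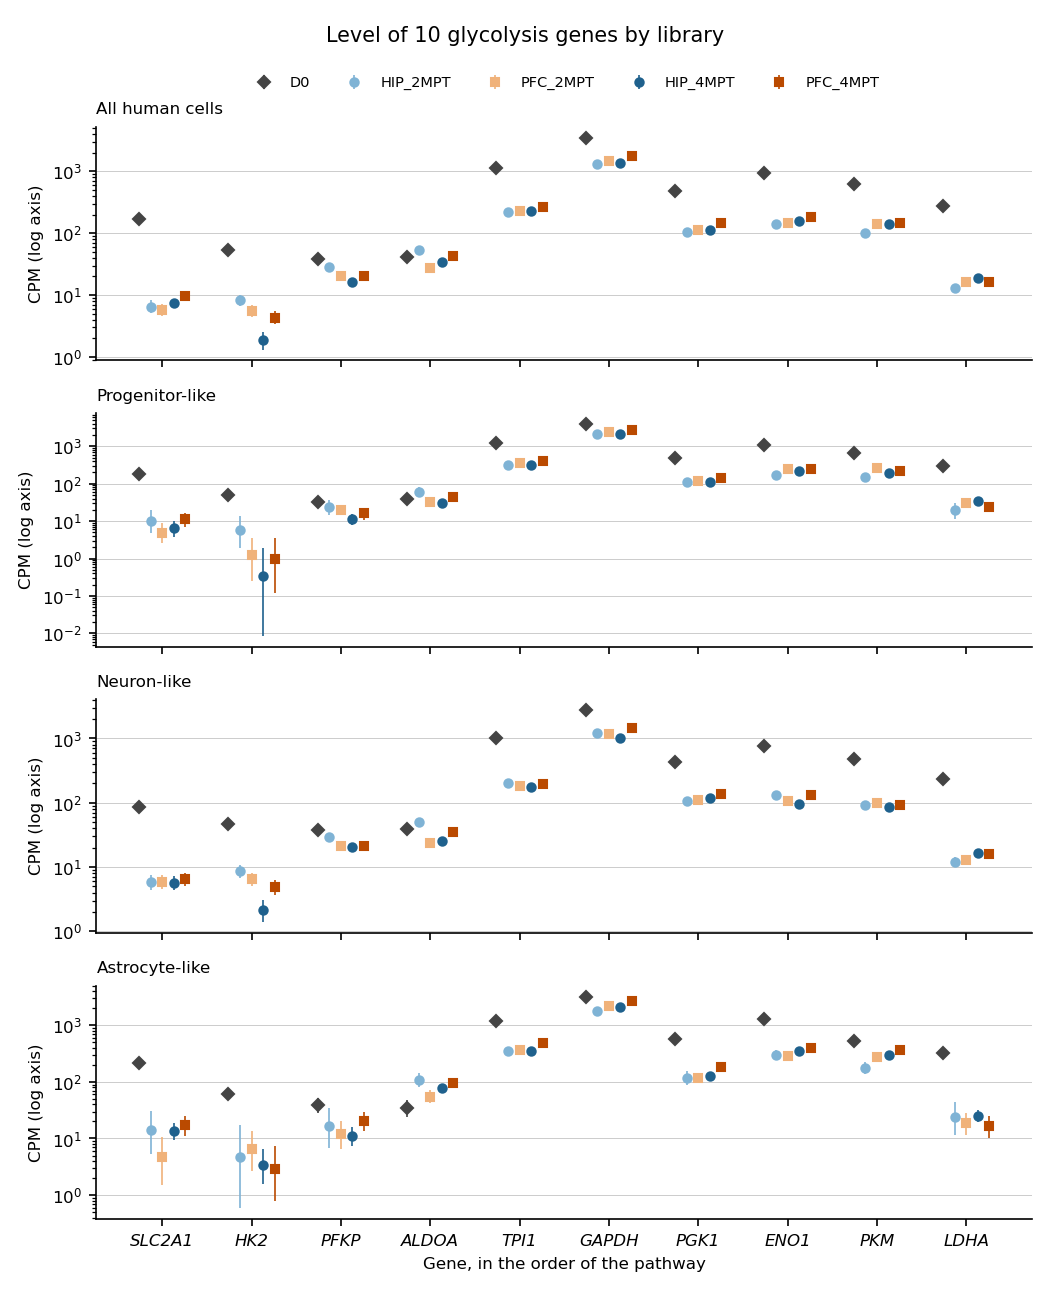
Level of each gene in CPM (log axis) in the 5 libraries, for all human cells and for each lineage, with genes in pathway order; points are library sums and bars are exact 95% Poisson intervals, which cover counting error only. D0 (diamonds) lies above the 4 graft libraries for 9 of 10 genes in all cells and in every lineage, and ALDOA is the exception.

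In all human cells, 9 of the 10 genes passed as lower in grafts and 1 did not pass, with a median log2 fold change of -2.59, against 0.06 over all 19074 genes tested. Of all genes tested, 24.1% passed as lower and 29.2% as higher. D0 lay above every graft library for 9 of the 10 genes and for 27.5% of all genes. Scaling by library totals moved the median of all genes to 0.41 and the share of calls that were higher from 54.8% to 69.0%, and 9 of the 10 genes still passed as lower. Both stages shared the single D0 library. At 2MPT 9 genes passed as lower (21.1% of all genes), with a median of -2.71, and at 4MPT 9 did (21.4% of all genes), with a median of -2.47.

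Since libraries differed in make-up, the same comparison was made within lineages. In progenitor-like cells 9 genes passed as lower in grafts (18.9% of all genes), led by HK2 (-5.62 ± 0.45, adjusted p = 3.35e-07) and SLC2A1 (-4.91 ± 0.32, adjusted p = 8.08e-08). In neuron-like cells 9 passed as lower (21.2% of all genes), led by LDHA (-4.16 ± 0.22, adjusted p = 1.08e-06) and SLC2A1 (-3.97 ± 0.23, adjusted p = 1.69e-06). In astrocyte-like cells 9 passed as lower (12.4% of all genes), led by SLC2A1 (-4.56 ± 0.33, adjusted p = 1.67e-07) and LDHA (-4.18 ± 0.28, adjusted p = 9.83e-08). ALDOA was the gene that did not pass in each of the lineages. D0 lay above every graft library for 9 of the 10 genes in each lineage, against 24.5%, 31.3% and 25% of all genes in progenitor-like, neuron-like and astrocyte-like cells. A narrower choice of clusters, made after the data were seen, kept cycling clusters 13 and 14, neuron-like cells outside cluster 12 and astrocyte-like cluster 7. It left out the radial glia clusters, and 9 genes again passed as lower in each lineage.

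The levels behind these calls are given for a few genes. LDHA in progenitor-like cells stood at 304 CPM in D0 and at 19.5 (HIP) and 30.5 (PFC) at 2MPT and 34.8 (HIP) and 23.3 (PFC) at 4MPT. In neuron-like cells it stood at 232 CPM in D0 and at 11.9, 13.03, 16.7 and 15.7 CPM in HIP_2MPT, PFC_2MPT, HIP_4MPT and PFC_4MPT. D0 was at least 8.73-fold above the highest graft library in either lineage. ENO1, the enolase, stood at 1075 CPM in progenitor-like cells of D0 against 175 to 242 CPM in grafts, and at 768 CPM in neuron-like cells against 94.3 to 133 CPM. GAPDH had the smallest fitted fall among the genes that passed in progenitor-like cells, with 3983 CPM in D0 against 2102 to 2748 CPM in grafts (-1.04 ± 0.24, adjusted p = 0.00256).

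Calls in astrocyte-like cells were the least firm. GAPDH there stood at 3168 CPM in D0 and at 1814, 2203, 2147 and 2717 CPM in HIP_2MPT, PFC_2MPT, HIP_4MPT and PFC_4MPT (-0.73 ± 0.25, adjusted p = 0.0349), and its call was lost without HIP_2MPT (-0.65, adjusted p = 0.0997), with DESeq2 (adjusted p = 0.084), with library totals (adjusted p = 0.12) and with lineages set by marker genes alone (adjusted p = 0.0657). The PFKP call there was lost with DESeq2 at nearly the same fold (-1.63, adjusted p = 0.13). Without integration, where D0 kept 6 astrocyte-like cells, 5 genes passed as lower, and SLC2A1, the leading gene, did not (-1.88, adjusted p = 0.414).

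By stage, progenitor-like cells had 8 genes lower at 2MPT (15% of all genes) and 9 at 4MPT (16.1%). Neuron-like cells had 8 lower at 2MPT (17.2%) and 9 at 4MPT (19.2%), and the gene that passed at 4MPT alone was PFKP in both lineages. Astrocyte-like cells had 9 lower at 2MPT (8.73%) and 7 at 4MPT (11.8%). In astrocyte-like cells at 4MPT, GAPDH (-0.57 ± 0.28, adjusted p = 0.135) and PKM (-0.88 ± 0.33, adjusted p = 0.0551) did not pass as lower, and ALDOA passed as higher (1.16 ± 0.42, adjusted p = 0.0484).

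**Figure D2:**
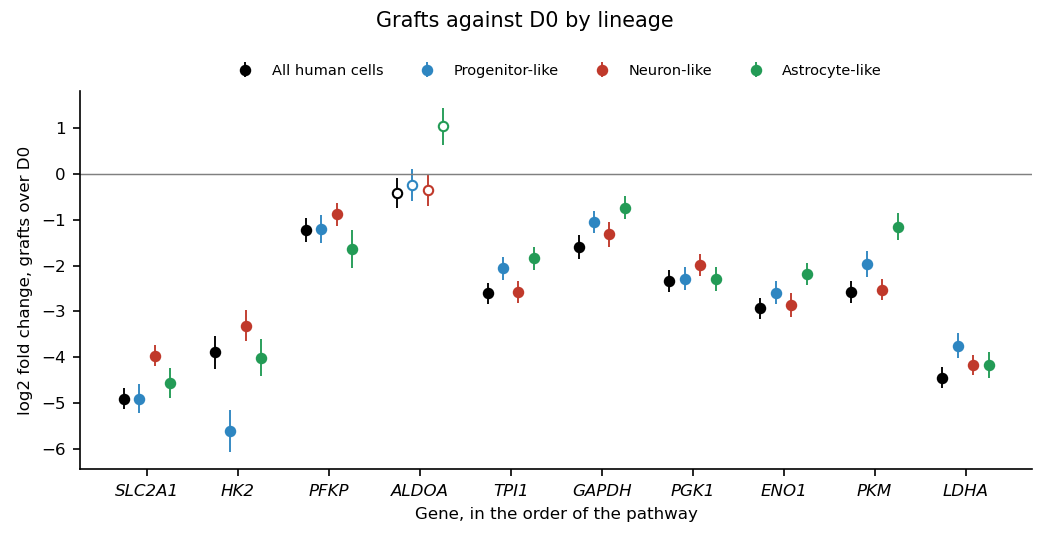
Log2 fold change of grafts over D0 (vertical axis) for each gene in all human cells and in each lineage; bars are standard errors from the edgeR fit, filled points passed an adjusted p of 0.05 and open points did not. All filled points lie below 0, from -0.73 for GAPDH in astrocyte-like cells to -5.62 for HK2 in progenitor-like cells, and the open points are those of ALDOA.

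Whether the fall differed between lineages was tested as an interaction. Of the 10 genes, 2 differed between astrocyte-like and neuron-like cells (4.73% of all genes). ALDOA was at 34.5 CPM in astrocyte-like cells of D0 and at 110, 54.8, 79.3 and 96.9 CPM in HIP_2MPT, PFC_2MPT, HIP_4MPT and PFC_4MPT, whereas neuron-like cells went from 38.6 CPM to 49.3, 23.7, 25.8 and 35.2 CPM. Every graft library was above D0 in astrocyte-like cells. The change was higher in astrocyte-like cells by 1.64 ± 0.31 on the log2 scale (adjusted p = 0.00684), although the rise within astrocyte-like cells did not itself pass (1.04 ± 0.40, adjusted p = 0.0609); it did without PFC_2MPT (1.28, adjusted p = 0.00227) or without HIP_4MPT (1.12, adjusted p = 0.0391). It also passed with the narrower clusters alone (adjusted p = 0.0349), library totals (0.0281), more than 1000 UMIs per cell (0.0468) and no filter on low counts (0.046). It did not pass with DESeq2 (1.06, adjusted p = 0.179) or with another scaling, RLE size factors (1.03, adjusted p = 0.0585). PKM was at 530 CPM in astrocyte-like cells of D0 and at 177 to 364 CPM in grafts, and at 487 CPM against 87.1 to 99.96 CPM in neuron-like cells. Its fall was smaller in astrocyte-like cells by 1.53 ± 0.34 (adjusted p = 0.0162), and this call was lost without HIP_4MPT (1.39, adjusted p = 0.0543) or without PFC_4MPT (1.33, adjusted p = 0.0853). Without HIP_2MPT 4 genes passed this interaction, ENO1 (0.98, adjusted p = 0.0402) and TPI1 (0.98, adjusted p = 0.0268) in addition. With lineages set by marker genes alone, neither ALDOA (1.01, adjusted p = 0.107) nor PKM (1.03, adjusted p = 0.0561) passed, while ENO1 (1.31, adjusted p = 0.0102) and SLC2A1 (-1.75, adjusted p = 0.0124) did. The median of all genes in this interaction was itself 0.28.

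Between progenitor-like and neuron-like cells 1 gene passed (3.38% of all genes). HK2 fell further in progenitor-like cells, by -2.02 ± 0.51 (adjusted p = 0.0429), on the few UMIs given above. The call was lost without PFC_2MPT (-1.76, adjusted p = 0.134), without HIP_4MPT (-1.99, adjusted p = 0.0562) and without PFC_4MPT (-2.004, adjusted p = 0.127). Between astrocyte-like and progenitor-like cells 0 genes passed by edgeR (0.414% of all genes), 3 had an unadjusted p under 0.05, and 0 passed with DESeq2.

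The summed share of UMIs showed the load of the pathway in a cell's RNA. The 10 genes took 0.726% of all UMIs in D0 and 0.198%, 0.216%, 0.209% and 0.263% in HIP_2MPT, PFC_2MPT, HIP_4MPT and PFC_4MPT, a mean of 0.221% ± 0.0288 (SD, n = 4). D0 was 3.28-fold above the graft mean. Within lineages the ratio was 2.38 in progenitor-like cells (0.80% against 0.336% ± 0.0402), 3.27 in neuron-like cells (0.591% against 0.180% ± 0.0219) and 2.13 in astrocyte-like cells (0.747% against 0.35% ± 0.0571). Without GAPDH and ALDOA, the other 8 genes had ratios of 5.34 in all cells and 4.18, 5.51 and 3.57 in these lineages. In every library neuron-like cells had the lowest share of the named lineages, which is a description of clusters and was not tested.

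**Figure D3:**
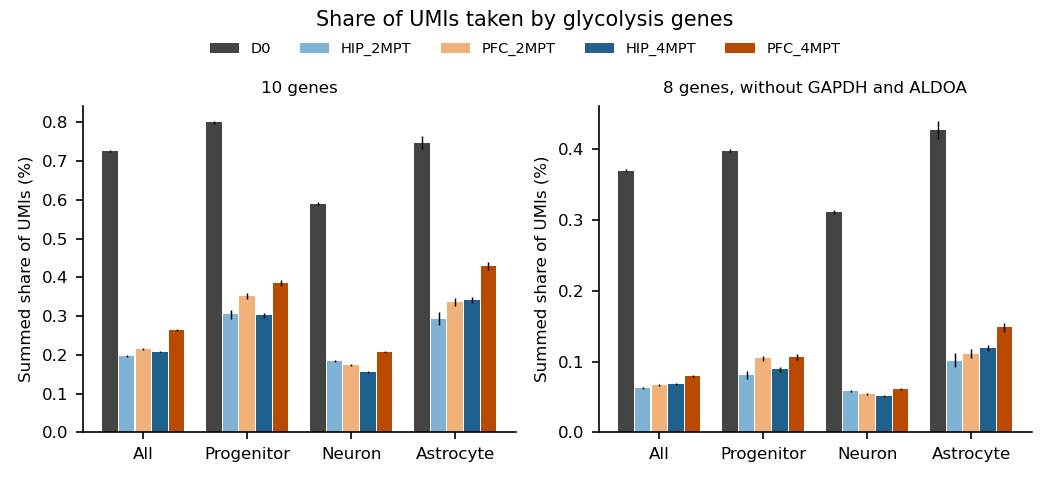
Summed share of UMIs (%) in the 10 genes (left) and in 8 genes without GAPDH and ALDOA (right), by lineage and library. Bars are shares of library sums and error bars exact 95% Poisson intervals for counting error only. In all cells the 10 genes take 0.726% in D0 and 0.198% to 0.263% in grafts, and neuron-like cells lie below progenitor-like and astrocyte-like cells in each library.

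Finer cell classes, named from the same marker lists, were described without a test. In D0 the share was 0.840% in radial glia, 0.736% in cycling progenitors, 0.755% in intermediate progenitors, 0.561% in neurons, 0.615% in inhibitory neurons and 0.83% in 382 choroid plexus-like cells, the epithelium that secretes cerebrospinal fluid. Of the 354 inhibitory neurons of D0, 271 lay in cluster 10, a shallow cluster (depth ratio 0.457). Its inhibitory score (0.67) was close to its neuron score (0.635), so this name is weak. In grafts radial glia ranged from 0.303% to 0.384%, cycling progenitors from 0.294% to 0.387%, intermediate progenitors from 0.180% to 0.244% and neurons from 0.145% to 0.199%. Oligodendrocyte-lineage cells, of which the 2MPT libraries held 31 (HIP) and 45 (PFC), too few to be summed here, had at 4MPT 0.223% in HIP_4MPT and 0.339% in PFC_4MPT. Each class of D0 that grafts also held lay above that class in every graft library.

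Because D0 cells were deeper, each cell was also thinned to 1000 UMIs, which left out 282 cells of D0 and 183 (HIP_4MPT) to 1732 (HIP_2MPT) cells of a graft library. A thinned cell then held a mean of 7.21 UMIs of the 10 genes in D0 and 1.99, 2.06, 1.93 and 2.48 in HIP_2MPT, PFC_2MPT, HIP_4MPT and PFC_4MPT. Cells with none of the 10 genes were 1.07% of D0 and 13.2% to 19.4% of grafts. LDHA was seen in 18.1% of thinned D0 cells and in at most 1.64% of the cells of a graft library, SLC2A1 in 14.3% against 0.561% to 0.968%, HK2 in 5.65% against 0.193% to 0.703%, and GAPDH in 90.4% against 66.6% to 76.4%. Without thinning, LDHA was seen in 50.1% of D0 cells and in 1.67% to 5.24% of graft cells. Host barcodes, with a human share under 0.2, give a background for the human genes. Under the human-mouse reference and thinned to the same 1000 UMIs (medians of 1418 to 3035 UMIs before thinning), 0% to 0.272% of them in a library held a UMI of LDHA, 0% to 0.136% of SLC2A1, 0% to 0.158% of HK2 and 5.84% to 14.5% of GAPDH. The shares of graft cells came from the human reference and those of host barcodes from the human-mouse reference. Across these unlike references, thinned graft cells lay above the host barcodes of their own library for each of these genes. Some of these shares were nonetheless inside the exact 95% counting interval of the host barcodes: HK2 in PFC_2MPT (0.596%, upper bound 0.877%) and HIP_4MPT (0.193%, upper bound 0.317%), and SLC2A1 in HIP_2MPT (0.596%, upper bound 0.756%) and PFC_2MPT (0.561%, upper bound 0.581%). At this depth they cannot be told from background. Scaled to their own UMIs in the human reference, host barcodes lay above graft cells in CPM for SLC2A1 and GAPDH in every graft library. They held SLC2A1 at 64.2, 81.0, 360 and 308 CPM in HIP_2MPT, PFC_2MPT, HIP_4MPT and PFC_4MPT. GAPDH stood at 1971, 1625, 2068 and 2634 CPM in the same order. LDHA and HK2 were not scaled in this way.

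Stage and site within grafts gave no passing gene in any comparison. Between 4MPT and 2MPT 0 of the 10 genes passed by edgeR in all cells (2.4% of all genes), 1 had an unadjusted p under 0.05 and 0 passed with DESeq2. That gene was HK2 (-1.09 ± 0.41, adjusted p = 0.24), which passed as lower at 4MPT without PFC_2MPT (-1.35, adjusted p = 0.0067). The stages did not overlap for 5 of the 10 genes (45.3% of all genes): PGK1, ENO1 and SLC2A1 were above at 4MPT, and HK2 and PFKP below. SLC2A1 differed by 0.54 ± 0.26 (adjusted p = 0.406). Within lineages 0 genes passed by edgeR (0.988% of all genes in progenitor-like, 0.881% in neuron-like and 2.72% in astrocyte-like cells), with 0, 1 and 0 at an unadjusted p under 0.05 and 0 passing with DESeq2.

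Between PFC and HIP, with stage in the model, 0 genes passed by edgeR in all cells (0.0876% of all genes), in progenitor-like (0.00827%), neuron-like (0.0313%) or astrocyte-like cells (0.125%), and 0 had an unadjusted p under 0.05 or passed with DESeq2. In progenitor-like and astrocyte-like cells HK2 was removed by the filter on low counts and was not tested. The differences ran from -0.25 for ALDOA to 0.33 for HK2 in all cells, with a median of 0.18 and standard errors of 0.30 to 0.50. PFC_4MPT was the highest graft library for SLC2A1, TPI1, GAPDH, PGK1, ENO1 and PKM in all cells, and it was also the library with the highest mitochondrial share, whose part in these levels was not tested.

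Several steps can be run by more than one gene, and the balance of these isozymes shifted. Since 1 UMI counts 1 molecule at its 3′ end, transcript length does not enter, but capture can differ between genes, so that changes of a share are compared and not the levels of the pair. LDHA made up 19.3% of LDHA and LDHB in D0 and 3.095%, 3.42%, 3.55% and 3.13% in HIP_2MPT, PFC_2MPT, HIP_4MPT and PFC_4MPT. LDHB, the subunit that favours the return of lactate to pyruvate, fell less (-1.64 ± 0.24, adjusted p = 0.000249). HK2 made up 44.6% of HK1 and HK2 in D0 and 7.65% to 19.0% in grafts. SLC2A1 made up 70.0% of SLC2A1 and the neuronal carrier SLC2A3 in D0 and 10.8% to 26.6% in grafts. Every graft library lay below D0 for these pairs, in each lineage as well.

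The other pairs depended on lineage. ENO1 made up 76.2% of ENO1 and the neuronal enolase ENO2 in D0 and 55.1% to 70.0% in grafts, but in astrocyte-like cells D0 (85.2%) lay inside the graft range of 78.4% to 88.4%. ALDOA made up 37.5% of ALDOA and ALDOC in neuron-like cells of D0 and 67.9% to 76.6% in those of grafts. In astrocyte-like cells it went the other way, from 40.7% in D0 to 26.8%, 13.8% and 17.5% in PFC_2MPT, HIP_4MPT and PFC_4MPT, with HIP_2MPT above D0 at 46.0%. ALDOC, the aldolase of astrocytes, was higher in astrocyte-like cells of grafts (2.15 ± 0.35, adjusted p = 0.000276) and lower in neuron-like cells (-2.31 ± 0.41, adjusted p = 0.000896), and the difference passed (4.86 ± 0.75, adjusted p = 0.00188). PFKP made up 26.9% of the 3 phosphofructokinase genes in D0, inside the graft range of 21.9% to 31.2%, but in astrocyte-like cells D0 (24.1%) lay above every graft library. Partner genes were named for the pair they form, whatever their change.

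**Figure D4:**
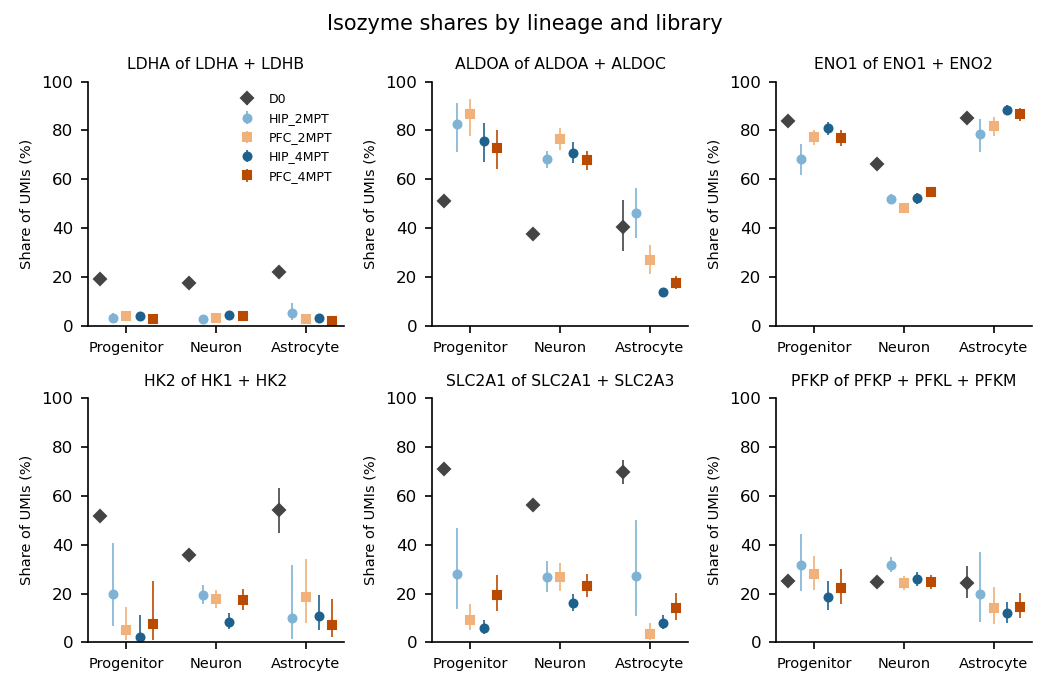
Share of UMIs (%) of 1 isozyme within its pair or trio, by lineage and library; points are shares of library sums and bars exact 95% binomial intervals for counting error only. The LDHA, HK2 and SLC2A1 shares of D0 lie above all graft libraries in each lineage, while the ALDOA share is higher in grafts in progenitor-like and neuron-like cells and lower in astrocyte-like cells of PFC_2MPT, HIP_4MPT and PFC_4MPT.

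Neighbouring metabolic lists were read in the same fit, in all human cells, where 24.1% of all genes passed as lower. Of 10 other glycolytic genes, 8 passed as lower and 0 as higher, with a median of -1.42, led by GPI, the isomerase after hexokinase (-2.97 ± 0.22, adjusted p = 5.23e-06), and PGAM1, the phosphoglycerate mutase (-2.21 ± 0.23, adjusted p = 3.39e-05). Of 10 sugar and lactate transporters, 6 passed as lower and 0 as higher, with a median of -1.34. SLC16A3, the lactate exporter MCT4, went from 41.0 CPM in D0 to 2.44, 2.88, 1.37 and 5.16 CPM in HIP_2MPT, PFC_2MPT, HIP_4MPT and PFC_4MPT (-4.14 ± 0.45, adjusted p = 4.27e-05). Its chaperone BSG fell by 1.78 on the log2 scale (adjusted p = 0.000117).

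The remaining lists are regulators and side branches, whose counts are read against the 24.1% of all genes that passed as lower. Of 8 regulators 1 passed, as lower, a share below that of all genes: PDK1, the kinase that blocks pyruvate dehydrogenase, went from 68.0 CPM in D0 to 2.44, 1.87, 2.17 and 3.72 CPM in grafts (-5.11 ± 0.29, adjusted p = 1.72e-06). The median of that list was -0.56. Of 8 genes of pyruvate entry into mitochondria, 2 passed as lower and 0 as higher (median -0.52), close to the share of all genes, namely the citrate synthase gene CS (-1.73 ± 0.26, adjusted p = 0.000359) and PDHB (-0.97 ± 0.24, adjusted p = 0.00607). Of 7 pentose phosphate genes, 3 passed as lower and 0 as higher (median -0.30), with TKT, transketolase, in front (-2.54 ± 0.24, adjusted p = 1.74e-05). Of 7 glycogen genes, 3 passed as lower and 0 as higher (median -0.79), with PGM1, which joins glycogen to glycolysis, in front (-2.69 ± 0.25, adjusted p = 1.53e-05). Between 4MPT and 2MPT ALDOC passed as higher at 4MPT (1.58 ± 0.26, adjusted p = 0.00938).

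Within lineages the lists kept mostly the same direction, with exceptions in single genes. Other glycolytic genes passed as lower for 8 of 10 in progenitor-like, 7 of 10 in neuron-like and 4 of 10 in astrocyte-like cells (18.9%, 21.2% and 12.4% of all genes), where ALDOC passed as higher. PDK1 passed as lower in each lineage, at -4.80 in progenitor-like, -5.39 in neuron-like and -4.77 in astrocyte-like cells. Of 7 regulators tested in progenitor-like cells, 3 passed as lower, with PFKFB4 (-1.76 ± 0.37, adjusted p = 0.00131) and PFKFB3 (-1.01 ± 0.32, adjusted p = 0.0176), which set the level of a phosphofructokinase activator, beside PDK1. Genes that passed as higher were SLC2A10 (2.22 ± 0.61, adjusted p = 0.0111) and GBE1, the glycogen branching enzyme (1.75 ± 0.37, adjusted p = 0.0028), in neuron-like cells, and MPC1, a mitochondrial pyruvate carrier subunit (0.92 ± 0.32, adjusted p = 0.0393), in astrocyte-like cells.

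Of 15 HIF targets outside glycolysis, 14 passed as lower in grafts and 0 as higher, with a median of -2.64. VEGFA, which calls in blood vessels, went from 178 CPM in D0 to 8.22, 7.42, 7.46 and 17.2 CPM in HIP_2MPT, PFC_2MPT, HIP_4MPT and PFC_4MPT (-4.52 ± 0.33, adjusted p = 5.22e-06), and DDIT4, a stress-induced brake on mTOR signalling, fell by 4.83 (adjusted p = 2.42e-06). The gene that did not pass was NDRG1. Between 4MPT and 2MPT 1 of the 15 targets passed by edgeR, as higher at 4MPT (2.4% of all genes passed in either direction). Their median there was 0.51, against -0.009 over all genes, and 5 had an unadjusted p under 0.05. In progenitor-like, neuron-like and astrocyte-like cells 14 of 14, 14 of 15 and 11 of 14 tested targets passed as lower, against 18.9%, 21.2% and 12.4% of all genes.

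**Figure D5:**
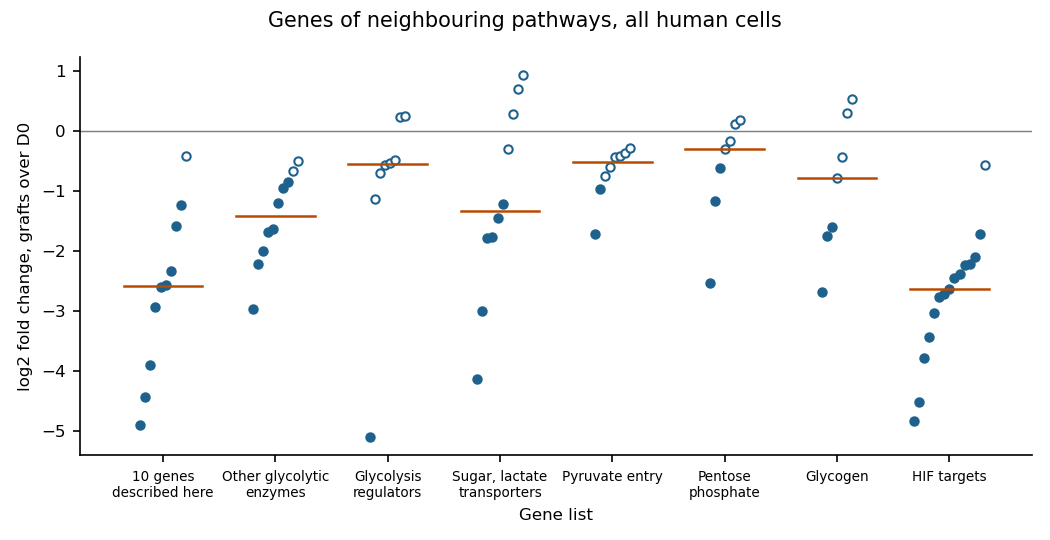
Log2 fold change of grafts over D0 in all human cells for each gene of the 10 described here and of 7 neighbouring lists; filled points passed an adjusted p of 0.05, open points did not, and bars mark list medians. The medians of the 10 genes (-2.59) and of the HIF targets (-2.64) are the lowest, and 1 regulator, PDK1, stands at -5.11.

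Among single cells of D0, thinned to 5000 UMIs, the summed UMIs of 8 genes (without GAPDH and ALDOA) and of the 15 HIF targets ranked alike, with a Spearman rho of 0.729 over 1625 progenitor-like, 0.669 over 1461 neuron-like and 0.658 over 74 astrocyte-like cells. These cells share 1 library and the 2 sums share each cell's capture, so that the values are a description. The sum of ribosomal protein genes gave 0.344, 0.409 and 0.147 in the same cells. Within grafts rho was -0.117 to 0.417 over 56 to 246 cells, where the 8 genes gave 2.35 to 5.82 UMIs per cell on average against 15.4 to 22.0 in D0. The graft values thus rest on few UMIs. They also rest on the deepest graft cells, since 62 of 4853 neuron-like cells of PFC_2MPT and 112 of 4739 of HIP_4MPT were used. In D0 1461 of 2098 were, and HIP_2MPT had too few deep cells in every lineage. In D0 the 5th and 95th percentiles of the sum were 6 and 44 UMIs in progenitor-like cells.

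By the pattern of their level over the 15 sums of library and lineage, the genes most like the mean of the 10 were TNFRSF10B (Pearson r = 0.973), EIF4H (r = 0.971), CRABP2 (r = 0.967), PRPS1 (r = 0.966) and KDM3A (r = 0.963), among 10165 genes of at least 10 CPM. CRABP2 went from 133 CPM in D0 to 0.567 to 1.26 CPM in grafts. KDM3A is also 1 of the 15 HIF targets. Over the 12 graft sums alone the leading genes were AARS (r = 0.967), SIRPA (r = 0.962), PTPMT1 (r = 0.962), SELENOK (r = 0.959) and SLC3A2 (r = 0.958), among 10258 genes, so that the leading genes were other ones once D0 was left out. The sums share libraries, and these values are a description.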

How the data were processed

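Single-cell RNA was measured in 5 Chromium 3′ libraries. Per the file headers and labels, the authors deposited UMI counts per gene and barcode, not normalized, made with Cell Ranger 3.1.0 (D0) or 5.0.0 (grafts; the submitters' processing notes name 3.1), for grafts against a human and a human-mouse reference. The treatment of intronic reads is not given in the sources used here.

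Cells kept had more than 500 UMIs and 500 genes, log10 genes over log10 UMIs above 0.8, a mitochondrial share under 15% and, in grafts, a human share above 0.8 in the dual reference (34390 of 42435 barcodes). Clusters came from R 4.3.3 with sctransform 0.4.2 and Seurat 5.3.0 (2500 variable genes without the listed metabolic genes, RPCA integration, 40 components, resolution 0.8) and were named from marker lists. Scrublet (scanpy 1.11.5) marked 0.0174% of cells, which is too few to have worked, so that doublets were treated as an alternative.

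UMIs were summed per library and lineage and tested with edgeR 4.0.16 (filterByExpr, TMM, quasi-likelihood F test, Benjamini-Hochberg over all genes, threshold 0.05). HIP and PFC libraries of a stage served as its replicates, and D0 was assumed to vary like them. p-values measure the spread between these libraries. The interaction used 15 sums with library as block. CPM are UMIs scaled to 1000000 over the 32732 common genes. Intervals are exact 95% Poisson or Clopper-Pearson intervals for counting error only.

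The fit was tested on simulated data with an assumed spread between libraries. In all cells it found 17, 27 and 29 of 100 2-fold changes for grafts against D0, 4MPT against 2MPT and PFC against HIP. Of 100 4-fold changes it found 95, 96 and 96, with 3, 2 and 5 false calls. A lack of a call between stages or sites thus leaves 2-fold changes open. Only all cells and neuron-like cells were simulated, and only well-covered genes were changed. For progenitor-like and astrocyte-like cells, and for genes on few UMIs such as HK2 there, larger changes are open too. Positions are from GENCODE on GRCh38. The 10 genes, the other lists and the tests were chosen with earlier results of these data known. Named genes of other lists were at most 4 called ones with the largest change, and likeness used log2(CPM + 1). Alternatives were DESeq2 1.42.0, other scalings, filters, lineage definitions and leaving out each graft library.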

Additional observations from a re-analysis of the deposited data

Results flagged for a closer look

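Of 44 sets of 4 graft libraries tested (each gene in all cells and in each lineage, and the summed share), 6 had 1 library apart by Dixon's criterion, where chance gives about 1 in 20. PFC_4MPT was apart, as the highest, for TPI1 in all cells (gap of 0.839 of the range), TPI1 in astrocyte-like cells (0.853) and SLC2A1 in neuron-like cells (0.849), where all 4 values lay between 5.69 and 6.40 CPM. HIP_2MPT was apart for PKM in all cells (0.893, the lowest), HK2 in progenitor-like cells (0.833, the highest, on 5 UMIs) and PFKP in neuron-like cells (0.839, the highest).

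The change from D0 to grafts differed between lineages for 3 of the genes. Between astrocyte-like and neuron-like cells, where 4.73% of all genes passed, it differed by 1.64 on the log2 scale for ALDOA and 1.53 for PKM. Between progenitor-like and neuron-like cells, where 3.38% of all genes passed, it differed by -2.02 for HK2. With lineages set by marker genes alone, ALDOA (1.01, adjusted p = 0.107) and PKM (1.03, adjusted p = 0.0561) did not pass, and HK2 was lost under 9 alternatives.

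Barcodes with a human share under 0.2, which no comparison between groups used, also held UMIs of these genes in the human-reference counts. The 10 genes together had 1128 (HIP) and 685 (PFC) such UMIs at 2MPT, and 3862 (HIP) and 2883 (PFC) at 4MPT. GAPDH made up 76.5% to 85.0% of them and SLC2A1 2.57% to 13.3%, with 515 SLC2A1 UMIs in HIP_4MPT and 275 in PFC_4MPT. These came from 737 (HIP) and 422 (PFC) barcodes at 2MPT and 1102 (HIP) and 927 (PFC) at 4MPT. Under the human-mouse reference a larger set was counted, 916 (HIP) and 772 (PFC) barcodes at 2MPT and 2071 (HIP) and 1202 (PFC) at 4MPT. That set held 361 (HIP) and 133 (PFC) UMIs of the 10 human genes at 2MPT. At 4MPT it held 718 (HIP) and 720 (PFC), and 0 to 4 UMIs in a library were of SLC2A1. The barcodes read in the human reference are part of this larger set. Under the human-mouse reference they therefore held no more UMIs of these human genes than the larger set did. The source of the UMIs in the human-reference counts was not tested.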

How the results depend on the processing

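No paired analysis was possible because the labels give the libraries no shared replicate numbers, but the 4 graft libraries cross site with stage: with graft site as a block, 0 of the 10 genes passed by edgeR in 4MPT against 2MPT in all cells and in each lineage, as without it. Leaving out a library could not be run for PFC against HIP, where no residual degrees of freedom remain. The count of genes passing in 4MPT against 2MPT in all cells rose to 1 with no filter on low counts (HK2), and ranged from 0 to 1 without 1 library. Without integration, 5 genes passed as lower in astrocyte-like cells in grafts and 5 at 2MPT, and PFKP turned to 0.12 there; D0 then kept 6 such cells. For progenitor-like minus neuron-like cells, the count was 0 with the narrower clusters alone, DESeq2, library totals, more than 1000 UMIs, no integration or a resolution of 1.6. It was 2 with lineages set by marker genes without clusters, and 0 to 1 without 1 library. For astrocyte-like minus neuron-like cells it was 0 without integration and 1 to 4 without 1 library, and with marker genes the 2 that passed were ENO1 and SLC2A1 in place of ALDOA (1.01) and PKM (1.03), and for astrocyte-like minus progenitor-like cells it was 1 with marker genes, 2 with no filter and 3 without integration. The other causes were not tested. Of 386 alternative counts, 365 stayed within 1.5 times, and of 1480 alternative fold changes 1435 kept their side of the threshold. Among these, a gene that passed in neither fit could still change its sign, as ALDOA did in progenitor-like cells with library totals. Of the values without a test, 61 moved beyond their interval or spread and 3 did not. They covered cells without thinning, lineages of equal weight and sums without GAPDH and ALDOA. With each lineage given equal weight, ALDOA moved to 0.52 from -0.07 in log2 CPM (no test). PKM moved to -1.54 from -2.23 and GAPDH to -0.77 from -1.25, while HK2 and PFKP moved further below 0. Depth limits HK2 and SLC2A1 in graft lineages, which rest on 1 to 83 UMIs.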
